A study of Mus musculus with 40 samples.

Results

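The fatty acid elongase family of the mouse has 7 genes, Elovl1 to Elovl7. They were taken by name from the 21755 protein-coding genes of the GENCODE M21 basic annotation (GRCm38, chromosomes 1 to 19 and X), and all 7 were found. For each gene, the window was the gene body with 20 kb on each side, and every peak of H3K4me3, H3K27ac, H3K4me1 and H3K27me3 in that window was collected from the lists of 8 mice. All mice were wild type C57BL/6N, 20 weeks old, and interscapular brown adipose tissue (iBAT), a fat depot that burns fuel to make heat, was profiled by chromatin immunoprecipitation with sequencing (ChIP-seq). Mice 1 and 2 were kept warm on normal chow diet (NCD), and mice 4 and 5 were kept at 4 °C for 24 h on NCD. Mice 7 and 8 were kept warm on high-fat diet (HFD), which was fed for 12 weeks from 8 weeks of age, and mice 10 and 11 received HFD and the same cold exposure. Each of the 4 conditions therefore had 2 mice, and each temperature and each diet had 4. Each list carries the number of 1 mouse, but the methods can also be read as 2 mice in each experiment, so p-values measure the spread between these lists.

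Elongases carry out the condensation step of the cycle that lengthens fatty acids at the endoplasmic reticulum. A reduction, a dehydration and a further reduction complete each round. Elovl6 lengthens palmitate and palmitoleate and is a target of lipogenic transcription factors. Elovl3 makes very long saturated and monounsaturated fatty acids, and is known as a gene of brown fat that is induced by cold. Elovl1 and Elovl7 act on saturated and monounsaturated chains, Elovl2 and Elovl5 on polyunsaturated chains, and Elovl4 makes the longest chains, in retina, brain and skin. H3K4me3 marks active and poised start sites, H3K27ac active start sites and enhancers, H3K4me1 enhancers, and H3K27me3 genes repressed by Polycomb. The tissue was taken whole, so that fewer marked cells and less mark per cell cannot be told apart.

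The lists differed in length. H3K4me3 lists held 13517 to 24104 peaks, H3K27ac lists 3224 to 40604, H3K4me1 lists 12 to 27568 and H3K27me3 lists 20 to 6428. Mouse 7 had the shortest H3K4me3, H3K27ac and H3K4me1 lists. Mice 7 and 10, both on HFD, had 12 and 18 H3K4me1 peaks, so the absence of that mark at a gene is not informative in them. It says little in mouse 1 either, a warm NCD mouse with 592 H3K4me1 peaks. The H3K27me3 lists of 6 mice held 309 peaks or fewer, and only those of mouse 5 (6428 peaks) and mouse 11 (1392 peaks) were longer. The number of reads behind each list was not analysed here. The tissue label was checked against marker genes. All 7 brown adipocyte markers, Ucp1 among them, had H3K4me3 at a start site in at least 1 mouse, and 5 of the 7 had H3K27ac there in all 8 mice. All 5 general adipocyte markers had H3K4me3 at a start site in all 8 mice, and 3 of the 5 had H3K27ac there in all 8. None of 3 hepatocyte markers had a peak of any mark at a start site. All 3 endothelial markers, 2 of 5 skeletal muscle markers, 2 of 3 macrophage markers and 1 of 3 neuron markers had H3K4me3 in at least 1 mouse. For the last 2 lists these were cold mice 4, 5 and 11 only, which had the longest H3K4me3 lists. Of all protein-coding genes, 65.4% had H3K4me3 at a start site in at least 1 mouse and 43.6% in all 8. H3K27ac was there in all 8 mice for 3.77% of them and in at least 1 mouse for 50.0%. Of the muscle markers, Acta1 (skeletal actin) had H3K4me3 in all 4 NCD mice and in none of the 4 HFD mice. Mylpf (a fast muscle myosin light chain) had it in all 8, and Ckm, Myod1 and Myf5 had no H3K4me3 at a start site.

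Sequences from RefSeq (GRCm38.p6) are shown for the places on which the results turn. The promoter windows hold 250 bases before and 50 after the start of the gene, 5′ to 3′ on its strand. A promoter sequence was matched for 6 of the 7 genes, the exception being Elovl3. Capitals mark CpG dinucleotides, the sites of DNA methylation, which are dense in promoters that carry H3K4me3 in many tissues. The Elovl6 promoter is shown because Elovl6 was the only member with H3K27ac within 1000 bp of a start site in every mouse. H3K4me3 reached into the printed Elovl6 window in all 8 mice and H3K27ac in 4 (2, 4, 5 and 11). The Elovl2, Elovl4 and Elovl7 promoters are shown because these genes had H3K4me3 but no H3K27ac at a start site, and H3K4me3 reached into each of the 3 windows in mice 1, 2, 4, 5, 8 and 11. Elovl2 has 2 entries in the table, and the one printed lies on the start that is further upstream.
Elovl6, chr3:129532136-129532435, + strand: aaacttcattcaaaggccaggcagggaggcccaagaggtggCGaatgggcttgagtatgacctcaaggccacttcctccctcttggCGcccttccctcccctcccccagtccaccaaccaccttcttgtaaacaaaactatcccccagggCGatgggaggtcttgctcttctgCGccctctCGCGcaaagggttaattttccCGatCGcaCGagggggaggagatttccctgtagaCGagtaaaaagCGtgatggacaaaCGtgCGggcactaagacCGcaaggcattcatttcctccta
Elovl2, chr13:41220354-41220653, - strand: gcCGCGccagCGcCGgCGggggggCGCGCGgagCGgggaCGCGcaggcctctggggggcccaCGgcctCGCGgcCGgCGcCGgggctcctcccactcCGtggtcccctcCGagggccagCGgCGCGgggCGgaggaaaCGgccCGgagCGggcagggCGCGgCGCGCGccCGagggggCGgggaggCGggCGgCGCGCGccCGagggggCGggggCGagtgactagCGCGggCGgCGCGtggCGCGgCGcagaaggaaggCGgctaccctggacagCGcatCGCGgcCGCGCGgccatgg
Elovl4, chr9:83806256-83806555, - strand: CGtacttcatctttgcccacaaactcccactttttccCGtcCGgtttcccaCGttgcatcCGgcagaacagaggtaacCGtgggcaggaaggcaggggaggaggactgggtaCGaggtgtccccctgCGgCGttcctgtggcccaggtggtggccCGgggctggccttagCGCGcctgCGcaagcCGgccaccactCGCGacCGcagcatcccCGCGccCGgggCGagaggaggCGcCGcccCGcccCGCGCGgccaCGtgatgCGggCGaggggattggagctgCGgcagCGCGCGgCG
Elovl7, chr13:108214154-108214453, + strand: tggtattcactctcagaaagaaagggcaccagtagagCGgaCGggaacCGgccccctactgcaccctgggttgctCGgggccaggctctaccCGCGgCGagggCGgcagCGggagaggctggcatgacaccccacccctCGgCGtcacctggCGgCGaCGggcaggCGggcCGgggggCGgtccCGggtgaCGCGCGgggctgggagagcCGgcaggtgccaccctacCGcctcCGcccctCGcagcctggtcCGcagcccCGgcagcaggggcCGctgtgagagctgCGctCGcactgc
The Elovl6 promoter held 14 CpG in 300 bases, more than 63.7% of the 32851 promoters in the table, whose median was 7. The Elovl7 promoter held 30 (88.3%), the Elovl4 promoter 35 (93%) and the printed Elovl2 promoter 56 (99.8%). The other Elovl2 entry held 45 (98.1%).

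The following windows of 300 bases lie on the summit with the highest −log10 p in H3K27ac regions away from the start sites. They were read from the + strand of the GRCm38.p6 genome, the strand of both genes. The 2 Elovl6 windows come from the intron regions that had H3K27ac in all 8 mice, and the Elovl5 window from an upstream region that had it in 7.
Elovl6 intron 2, 50.6 kb after the start site, chr3:129582801-129583100: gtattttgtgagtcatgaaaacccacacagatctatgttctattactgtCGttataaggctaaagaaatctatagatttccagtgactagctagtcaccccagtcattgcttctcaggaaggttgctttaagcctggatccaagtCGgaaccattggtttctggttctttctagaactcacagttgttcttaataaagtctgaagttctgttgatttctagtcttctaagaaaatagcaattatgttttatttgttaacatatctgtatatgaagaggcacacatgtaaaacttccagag
Elovl6 intron 2, 59.3 kb after the start site, chr3:129591544-129591843: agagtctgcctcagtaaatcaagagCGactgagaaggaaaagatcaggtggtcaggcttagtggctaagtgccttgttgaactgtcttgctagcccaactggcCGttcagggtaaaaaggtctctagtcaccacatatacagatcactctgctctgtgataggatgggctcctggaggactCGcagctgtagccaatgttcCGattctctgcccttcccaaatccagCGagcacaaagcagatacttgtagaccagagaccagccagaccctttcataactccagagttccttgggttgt
Elovl5 upstream, summit 6253 bp before the start site, chr9:77910961-77911260: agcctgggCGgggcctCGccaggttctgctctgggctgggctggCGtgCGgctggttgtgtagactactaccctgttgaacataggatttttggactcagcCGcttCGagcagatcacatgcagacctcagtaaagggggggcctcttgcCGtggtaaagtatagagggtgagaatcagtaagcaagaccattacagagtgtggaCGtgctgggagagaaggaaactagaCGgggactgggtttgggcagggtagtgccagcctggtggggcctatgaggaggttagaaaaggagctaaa
These windows held 2, 5 and 9 CpG, and the median over 40555 H3K27ac summits of the longest list was 4. Short motifs, 6 in all and given here by their letters, were searched on both strands. AGGTCA (a nuclear receptor half-site) and CCCNNGGG (an early B-cell factor core) each occurred once in the Elovl6 promoter. CCCNNGGG occurred 2 times in the printed Elovl2 window and was not found in the other Elovl2 entry. AGGTCA occurs in 16.3% and CCCNNGGG in 13.7% of all promoters. GGGCGG (a GC box) occurred 5 times in the printed Elovl2 window, 3 times in that of Elovl7 and 2 times in that of Elovl4. It was not found in the Elovl6 window or in the other Elovl2 entry, and occurs in 35.7% of all promoters. CCAAT occurred once in each Elovl6 intron window and in 28.6% of all summit windows, and once in the Elovl4 promoter and in 37.4% of all promoters. GGGCGG occurred once in the Elovl5 window and in 14.3% of summit windows. CACGTG (an E-box, in 7.15% of promoters and 4.19% of summit windows) occurred once in the Elovl4 promoter and in no other printed window. TATAAA (13.6% and 11.8%) was in none of the 7 printed windows.

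All 7 elongase genes carried H3K4me3 at a start site in at least 1 mouse, as did 65.4% of all protein-coding genes. A peak counted as being at a start site when any of its bases lay within 1000 bp of the start of an annotated transcript of the gene. Elovl3, Elovl5 and Elovl6 had H3K4me3 there in all 8 mice (3 of 7 genes, 43.6% of all genes). Elovl1 and Elovl4 lacked it only in mouse 7, and Elovl2 and Elovl7 lacked it in mice 7 and 10. H3K27ac was found at the start sites of fewer members. Elovl6 was the only member with H3K27ac at its start site in all 8 mice, a state that 3.77% of all genes shared. No member had it with start sites within 500 bp, with a −log10 q of at least 5, or with lists of equal length. Elovl1 and Elovl5 had it in 6 mice, lacking it in mice 7 and 10, and Elovl3 in 4 mice. Elovl2, Elovl4 and Elovl7 had no H3K27ac at a start site in any mouse. Thus 4 of 7 members had H3K27ac at a start site in at least 1 mouse, against 50.0% of all genes.

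**Figure D1:**
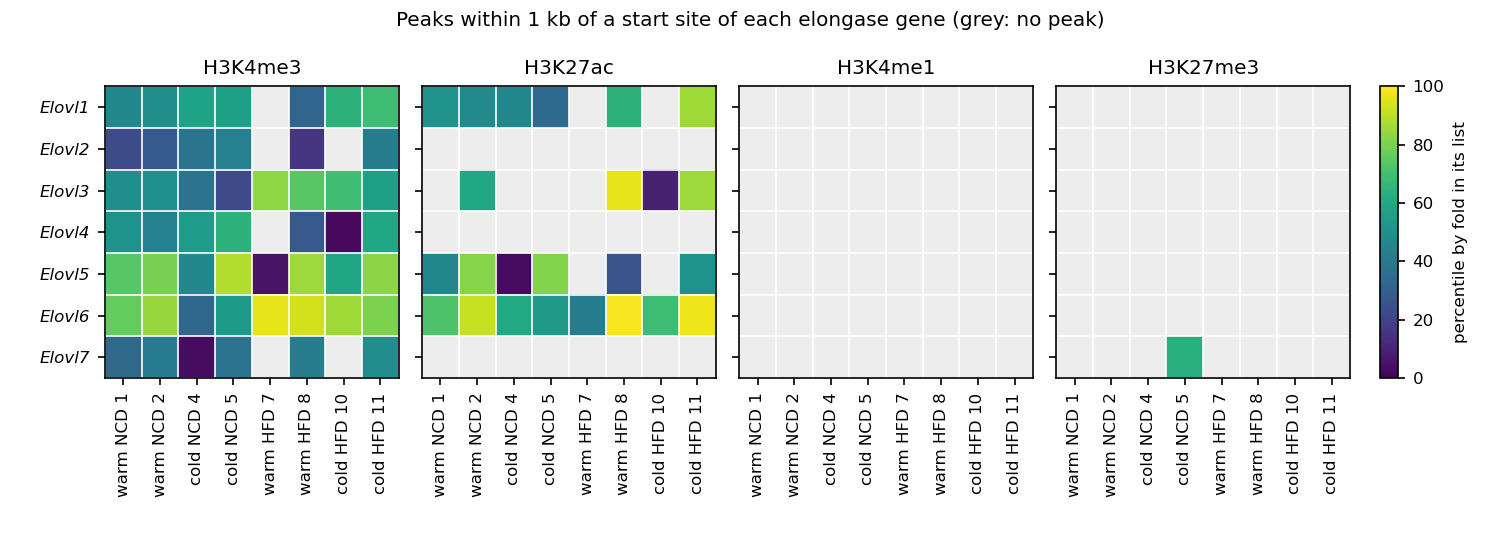
Peaks within 1 kb of a start site for the 7 elongase genes (rows) in each mouse (columns) and mark (panels). Colour gives the percentile, by fold, of the highest such peak within its own list, and grey cells had no peak. Elovl6 is coloured in all 8 mice for H3K4me3 and H3K27ac, the H3K4me1 panel is empty, and the H3K27me3 panel has 1 cell, Elovl7 in mouse 5.

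The H3K27me3 lists were short, as given above, and few of their peaks lay in the elongase windows. H3K27me3 lay at a start site of 1 member, Elovl7, in 1 mouse (mouse 5), against 6.95% of all genes with such a peak in at least 1 mouse. That peak ran from 198 to 642 bp after the Elovl7 start, in intron 1, with a −log10 q of 3.67, and overlapped the H3K4me3 region of the same gene. The Elovl1 window held 1 H3K27me3 peak, in the same mouse and with the same −log10 q, 504 bp from a start of Cdc20 (a cell-cycle regulator). The windows of the other 5 members had no H3K27me3 in any list. Of all 21755 protein-coding genes, 3768 had H3K27me3 in the window in at least 1 mouse. H3K4me1 was at no start site of any member in any mouse, against 22.6% of all genes with such a peak in at least 1 mouse. In the windows of Elovl2 and Elovl7 there was no H3K4me1 and no H3K27ac at all. Of the 21755 genes, 12835 had H3K4me1 and 14971 had H3K27ac in the window in at least 1 mouse.

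Presence at the start sites did not separate the groups. No member had a peak of any mark in all 4 mice of one temperature and in none of the other, which 0.0276% of all genes had for H3K4me3 and 0.0598% for H3K27ac. No member had it for diet either, against 0.120% and 0.0506%. The largest differences between groups were of 2 mice. H3K27ac at Elovl3 was present in mouse 2 on NCD and in mice 8, 10 and 11 on HFD, and in 2 cold and 2 warm mice. The call in mouse 10 rests on a peak near the floor of its list. That peak was 195 bp wide, with a −log10 q of 1.32, and the lowest of the list was 1.31. H3K4me3 at Elovl2 and Elovl7 and H3K27ac at Elovl1 and Elovl5 were present in all 4 NCD mice and in 2 HFD mice. The lowest two-sided Fisher's exact p over the 56 member tests was 0.429, and the adjusted p (Benjamini-Hochberg over all genes) was 1. With 4 against 4 mice no p can fall below 0.0286. At most 26 of 21755 genes reached that value for any mark and contrast, too few for any gene to pass the adjustment.

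Elovl6 (ENSMUSG00000041220.10, chr3:129532355-129638495, + strand) had the highest mean H3K27ac cover of the family. Its H3K27ac peaks covered 6.87% and 9.77% of the 146 kb window in warm NCD mice 1 and 2, and 8.95% and 10.1% in cold NCD mice 4 and 5. On HFD they covered 2.66% and 20.9% in warm mice 7 and 8, and 5.69% and 23.6% in cold mice 10 and 11. The 2 mice with the highest values, 8 and 11, also had the longest H3K27ac lists, and the lowest value was in mouse 7, with the shortest list. The mean of 11.1% ± 7.36 (SD, n = 8) was above those of 95% of the 14971 genes with any H3K27ac in their window. In each mouse taken alone, Elovl6 lay at the 86.3rd to 98.1st percentile of the genes covered in that mouse. The list of mouse 7 held 8 peaks in the Elovl6 window among its 3224 peaks.

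The acetylation of Elovl6 lay at the start site and in its long intron 2. The window held 31 separate H3K27ac regions (unions of overlapping peaks of the 8 mice), of which 7 had a peak in at least 3 mice and 3 in all 8. The start site region, as the union of all mice, ran from 1637 bp before to 6113 bp after the start, over exons 1 and 2, and its peaks covered 3793, 7583, 3170, 5081, 586, 6564, 2860 and 6216 bp in mice 1, 2, 4, 5, 7, 8, 10 and 11. It also held the starts of Gm35986 and Gm43072, 2 non-coding loci. The other regions found in every mouse were in intron 2, at 46.3 to 53.6 kb and 56.2 to 62.7 kb after the start. Within its own list, the highest peak of the region at 46.3 kb ranked at the 81.9th percentile by fold or above in every mouse, with a median of 97.2. In mouse 7 it was at the 96.5th percentile, while the start site peak of Elovl6 was at the 41.8th. The region at 56.2 kb had a median percentile of 89.6 and a range of 54.8 to 98.3. In mice 1, 4, 5, 7 and 10 both intron regions held a peak of higher fold than any in the start site region, in mice 8 and 11 only the region at 46.3 kb did, and in mouse 2 neither did. The 2 printed intron windows are the summits of these regions.

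Further intron 2 regions were shared by fewer mice. The region at 32.5 to 34.8 kb had H3K27ac in mice 4, 5, 8, 10 and 11, which are all 4 cold mice and 1 warm mouse. The call in mouse 10 rests on a peak near the floor of its list. That peak was 234 bp wide, at the 2.47th percentile by fold. Its −log10 q was 1.32, and the lowest of the list was 1.31. Presence in this region was not tested by temperature. The region at 69.2 to 71.8 kb had H3K27ac in mice 1, 2, 5, 8 and 11. Those at 19.1 to 20.3 kb and 54 to 55.9 kb had it in mice 5, 8 and 11. The other 24 regions had a peak in 1 or 2 mice. H3K4me1 formed 25 regions in the window, 6 of them in at least 3 mice and all 6 in intron 2. Mice 2, 4, 5, 8 and 11 had H3K4me1 there, and the 3 without any (1, 7 and 10) had the shortest H3K4me1 lists. Of those 6 regions, the one at 48.8 to 49.9 kb, inside the H3K27ac region at 46.3 kb, was in mice 2, 4, 5 and 8. Those at 33.6 to 34.6 kb and 51.2 to 51.9 kb were in mice 2, 5 and 8, and that at 40.9 to 41.5 kb in mice 2, 8 and 11. Those at 58.5 to 59.4 kb and 59.8 to 60.5 kb, both inside the H3K27ac region at 56.2 kb, were in mice 2, 4 and 5. H3K4me3 was confined, in all 8 lists, to the stretch from 573 bp before to 4755 bp after the start site. The H3K4me3 region over the start site covered 4504, 4886, 2687, 3458, 1557, 4074, 3409 and 4873 bp in mice 1, 2, 4, 5, 7, 8, 10 and 11. The widest H3K4me3 peak at the start site had a median width of 3380 bp (range 1301 to 4886). It ranked at the 89.2nd to 99.3rd percentile by width in its own list.

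**Figure D2:**
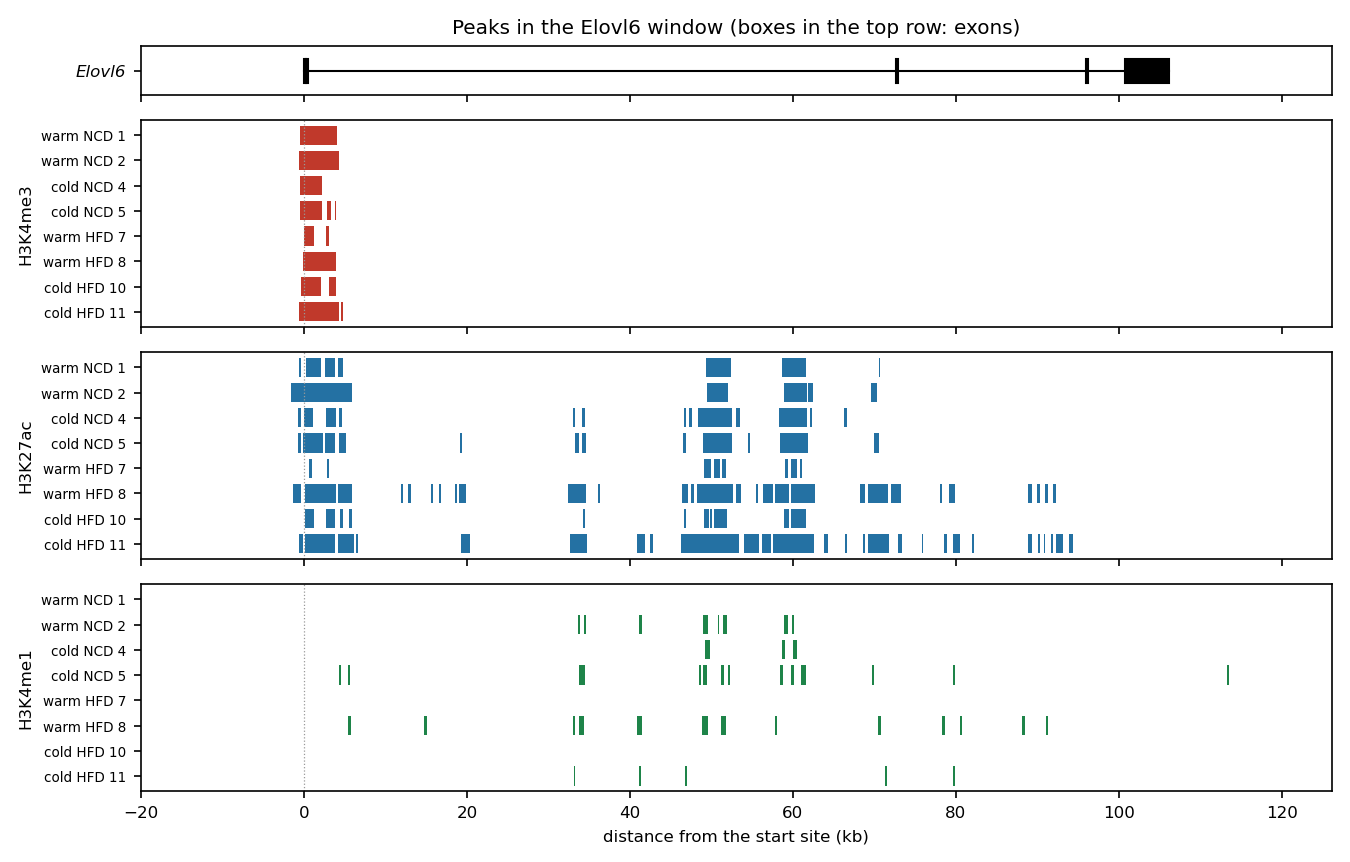
Peaks of H3K4me3, H3K27ac and H3K4me1 in the Elovl6 window. The horizontal axis is the distance from the start site in kb, each row is 1 mouse, each bar is 1 peak, and the boxes at the top are the exons of 1 reference transcript. H3K27ac is present in all 8 mice in the region over the start site and at 46.3 to 53.6 kb and 56.2 to 62.7 kb after it, and mice 8 and 11 have the largest number of other regions.

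Elovl3 (ENSMUSG00000038754.5, chr19:46131897-46135694, + strand) is a short gene of 3.8 kb, and H3K4me3 spanned it in mice 8, 10 and 11 and lay over parts of it in the others. The union of the peaks ran from 625 bp before to 5529 bp after the start site, over exons 1 to 4 and past the end of the gene. Within it, H3K4me3 covered 4194 and 5044 bp in warm NCD mice 1 and 2, 2221 and 3463 bp in cold NCD mice 4 and 5, 2343 and 4548 bp in warm HFD mice 7 and 8, and 4318 and 5578 bp in cold HFD mice 10 and 11. The 2 cold NCD mice and mouse 7 had the lowest values. The widest start site peak was 2268, 3362, 473 and 1128 bp wide in NCD mice 1, 2, 4 and 5, and 2343, 4548, 4318 and 5578 bp wide in HFD mice 7, 8, 10 and 11. In the 4 NCD mice a separate peak lay over the end of the gene and beyond it, starting between 3604 and 3756 bp after the start site. In HFD mice 8, 10 and 11 a single peak spanned the gene and its end, and in mouse 7 the peak stopped at 2407 bp. This split was noticed in the plotted peaks and was not tested.

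H3K27ac at Elovl3 was found in fewer mice than H3K4me3. Peaks covered 0.737% and 8.68% of the 43.8 kb window in warm NCD mice 1 and 2 and 1.09% and 3.45% in cold NCD mice 4 and 5. They covered 0% and 13.1% in warm HFD mice 7 and 8 and 0.445% and 12.7% in cold HFD mice 10 and 11. Mice 2, 8 and 11 were high and the other 5 low, and the high mice came from 3 of the 4 conditions. A region from 1218 to 409 bp before the start had H3K27ac in mice 2, 8, 10 and 11. In mouse 10 it was a peak of 195 bp at the 9.3rd percentile by fold, near the floor of its list. A region that ran, as a union, from 27 to 4731 bp after the start had it in mice 2, 5, 8 and 11. In mouse 5 the only peak of this region ran from 3783 to 4731 bp, over the last bases of the gene and beyond it. In mouse 8 the region held a peak 4248 bp wide at the 96.2nd percentile by fold, and in mouse 11 the highest was at the 85.2nd. Mice 1, 4 and 7 had no H3K27ac within the gene or at its start site. H3K4me1 in the window was limited to mice 4 and 5, next to Gbf1 in both and 4843 bp after the Elovl3 start in mouse 5. The mean H3K4me3 cover of the Elovl3 window, 15.9% ± 4.44 (SD, n = 8), exceeded those of 98.1% of 16854 genes. This window also contains the start sites of Pitx3 (a homeobox transcription factor) and Gbf1 (a Golgi trafficking factor), which carried H3K4me3 in all 8 mice. At Gbf1, H3K27ac was present in mice 1, 2, 4, 5, 8 and 11, so that mice 1 and 4 had it at this neighbour but not at Elovl3.

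**Figure D3:**
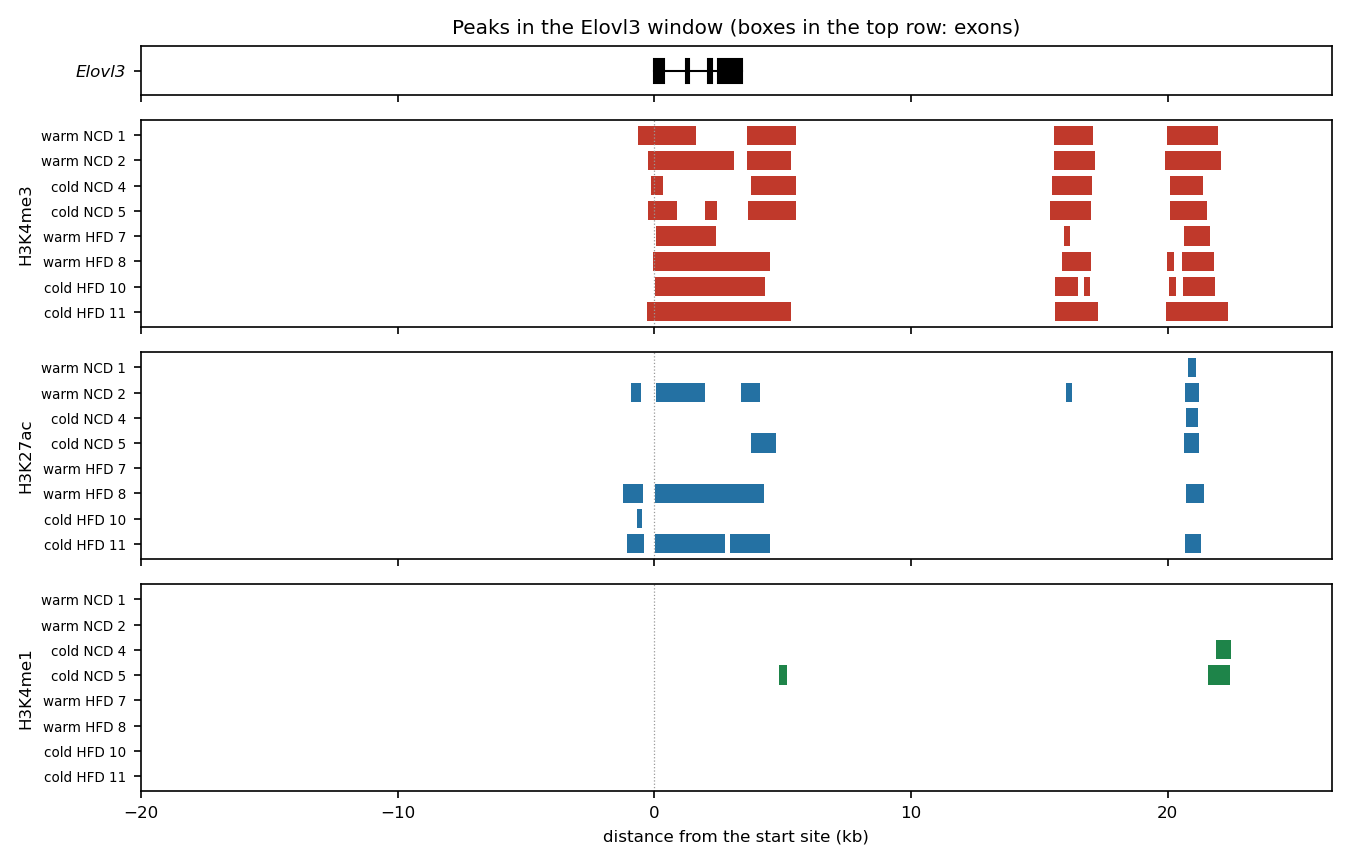
Peaks of H3K4me3, H3K27ac and H3K4me1 in the Elovl3 window, drawn as distance from the start site in kb with 1 row a mouse and exons at the top. H3K4me3 lies over the gene or part of it in all 8 mice and over the Pitx3 and Gbf1 starts to the right, while H3K27ac lies within 5 kb of the Elovl3 start in mice 2, 5, 8, 10 and 11 and is absent there in mice 1, 4 and 7.

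No test of the covered share of a member window by temperature or diet fell below an unadjusted 0.05. For H3K27ac at Elovl6 the cold mean was 12.1% ± 7.91 and the warm mean 10.0% ± 7.81 (SD, n = 4 each), a difference of 2.05 percentage points (two-sided exact permutation p = 0.629, adjusted p = 1). By diet, the HFD mean was 13.2% ± 10.6 and the NCD mean 8.93% ± 1.46, a difference of 4.29 percentage points (exact permutation p = 0.429, adjusted p = 1). For H3K27ac at Elovl3, cold was lower than warm by 1.21 percentage points (4.43% against 5.64%, exact permutation p = 0.886) and HFD higher than NCD by 3.09 (6.58% against 3.49%, exact permutation p = 0.457). The temperature differences of both genes turned when single mice were left out. The Elovl6 difference was -0.415 without mouse 7 and -1.79 without mouse 11, and the Elovl3 difference 1.29 without mouse 8 and 0.12 without mouse 10. Over all members and marks with any peak, the 38 tests of covered share by temperature and by diet gave a lowest exact permutation p of 0.143. It was that of H3K4me3 at Elovl2 by diet, with 0.44% ± 0.626 on HFD and 1.11% ± 0.0741 on NCD (SD, n = 4 each, exact permutation, adjusted p = 0.675), mice 7 and 10 having no peak. Of the 30 tests of the interaction (the cold effect on NCD minus that on HFD), the lowest exact permutation p was 0.0571, for H3K4me3 in the Elovl3 window. There the cold NCD and warm HFD mice averaged 12.8% ± 3.63 and the other 4 mice 19.0% ± 2.69 (SD). The adjusted p was 0.481, and 413 of 16854 genes fell below an unadjusted 0.05 in the same direction.

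Of the 22 member tests of the rank of the start site peak within its list by fold, for H3K4me3 and H3K27ac, 2 fell below an unadjusted 0.05, both for H3K4me3. At Elovl3 the peak was at the 49.7th, 50.3rd, 37.9th and 22.1st percentile in NCD mice 1, 2, 4 and 5, and at the 82.9th, 74.2nd, 69.2nd and 56.9th in HFD mice 7, 8, 10 and 11. The groups did not overlap. The HFD mean was 70.8 ± 10.9 and the NCD mean 40 ± 13.2 (SD, n = 4 each), a difference of 30.8 percentile points (exact permutation p = 0.0286, the smallest this design gives, adjusted p = 0.818). HFD lay above NCD without overlap in 98 of the 13282 genes tested (0.738%), and NCD lay above HFD without overlap in 352. The difference stayed between 23.4 and 45.8 under 13 alternatives, with exact permutation p of 0.0286 to 0.0571. In mouse 5 the highest H3K4me3 peak over the gene was the one beyond its end, at the 57.7th percentile, and not the start site peak. Of the 5 muscle markers, 2 had H3K4me3 at a start site in each NCD mouse and 1 (Mylpf) in each HFD mouse, the difference being Acta1. The part of muscle in the Elovl3 values was not tested.

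Elovl6 had the same order by diet with some overlap. Its H3K4me3 start site peak was at the 76.4th, 84.7th, 33.5th and 54.5th percentile in NCD mice 1, 2, 4 and 5, and at the 96.1st, 93.2nd, 85.7th and 80.3rd in HFD mice 7, 8, 10 and 11. Mouse 2 lay above mouse 11. The difference of means was 26.6 percentile points (88.8 ± 7.18 against 62.3 ± 23, SD, n = 4 each, exact permutation p = 0.0571, adjusted p = 0.818). When peaks were ranked by width, it was -2.24. By temperature, the cold mean at Elovl6 was 63.5 ± 24.2 and the warm mean 87.6 ± 8.92 (exact permutation p = 0.143). At Elovl3 they were 46.5 ± 20.7 and 64.3 ± 16.9 (exact permutation p = 0.257).

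At Elovl1 (ENSMUSG00000006390.15, chr4:118428093-118432953, + strand) the H3K4me3 start site peak was at the 46.7th, 49.9th and 32.7th percentile in warm mice 1, 2 and 8, and mouse 7 had no peak, counted as 0. In cold mice 4, 5, 10 and 11 it was at the 58.0th, 57.2nd, 64.5th and 69.0th. Every cold mouse lay above every warm mouse. The difference was 29.8 percentile points (62.2 ± 5.62 against 32.3 ± 22.8, SD, n = 4 each, exact permutation p = 0.0286, adjusted p = 0.595). Cold lay above warm without overlap in 596 of the 13282 genes (4.49%), and warm lay above cold without overlap in 42. Without mouse 7, which had the shortest H3K4me3 list, the difference was 19.1. Over 13 alternatives the difference was 19.1 to 35.7, and the exact permutation p was 0.0286 to 0.171. It stayed below 0.05 in 8 of them, and did not when peaks were ranked by width or without mouse 4, 5, 10 or 11. Of the 3 macrophage and 3 neuron markers, 1 of each list had H3K4me3 in cold mice 4, 5 and 11 and none in cold mouse 10 or in any warm mouse. Mice 4, 5 and 11 also had the longest H3K4me3 lists of all mice (22321, 22692 and 24104 peaks), and mouse 10 had 17195 peaks. The macrophage marker was Cd68 in mouse 4 and Csf1r in mice 5 and 11, the neuron marker was Syt1, and Adgre1, Neurod1 and Snap25 had no H3K4me3 in any mouse. The part of these cells in the Elovl1 values was not tested.

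**Figure D4:**
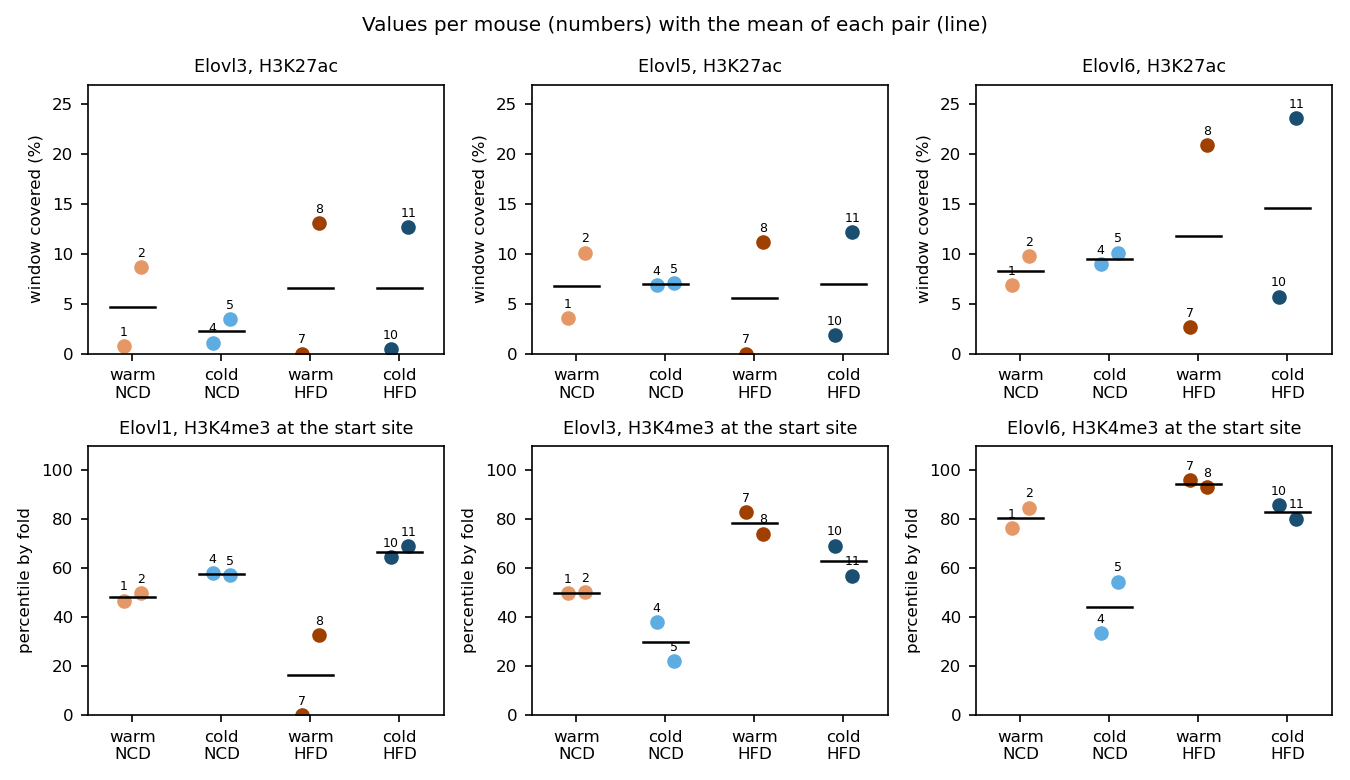
Values per mouse in the 4 conditions. The top row gives the percent of the window covered by H3K27ac for Elovl3, Elovl5 and Elovl6, and the bottom row the percentile by fold of the H3K4me3 start site peak for Elovl1, Elovl3 and Elovl6 (0 where a mouse had no peak). Points are mice, marked with their numbers, and lines are means of 2. Within each HFD condition, the H3K27ac values of mice 7 and 8 and of mice 10 and 11 lie far apart, while in the Elovl3 H3K4me3 panel the 4 HFD mice lie above the 4 NCD mice.

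Elovl5 (ENSMUSG00000032349.13, chr9:77917364-77984519, + strand) had the highest mean H3K4me1 cover of the family. H3K4me1 formed 23 regions in its 107 kb window, 10 of them in at least 3 mice, and its mean cover of 3.52% ± 3.39 (SD, n = 8) exceeded those of 97.4% of 12835 genes with any H3K4me1. Mice 2, 4, 5, 8 and 11 had a cover of 8.45%, 6.22%, 6%, 5.42% and 2.09%, and mice 1, 7 and 10 of 0%. An upstream region carried H3K4me3 in all 8 mice, 7493 to 5355 bp before the start, and H3K27ac in the 7 mice other than mouse 7, 7812 to 4893 bp before it. The Elovl5 start was the nearest annotated one to this region. The H3K27ac peak there was at a median percentile of 85.8 by fold, and at 98.6 or above in mice 5, 8 and 11. The start site itself had H3K27ac in 6 mice at a median percentile of 48.6. Intron 1 held H3K27ac in the same 7 mice at 26.2 to 27.6 kb and at 34.8 to 39.1 kb. Regions at 9.53 to 11.1 kb (mice 4, 8, 10 and 11) and, in intron 3, at 46.4 to 47.2 kb (mice 4, 8 and 11) were in fewer mice, and Gm34829 has the annotated start nearest to the latter. H3K4me1 overlapped the intron 1 regions in mice 2, 4, 5, 8 and 11. At 26.4 to 27.1 kb its peaks were at the 84.6th percentile by fold or above in each of these 5 mice. H3K27ac covered 3.52% and 10.1% of the window in mice 1 and 2, 6.84% and 7.05% in mice 4 and 5, 0% and 11.2% in mice 7 and 8, and 1.85% and 12.2% in mice 10 and 11.

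**Figure D5:**
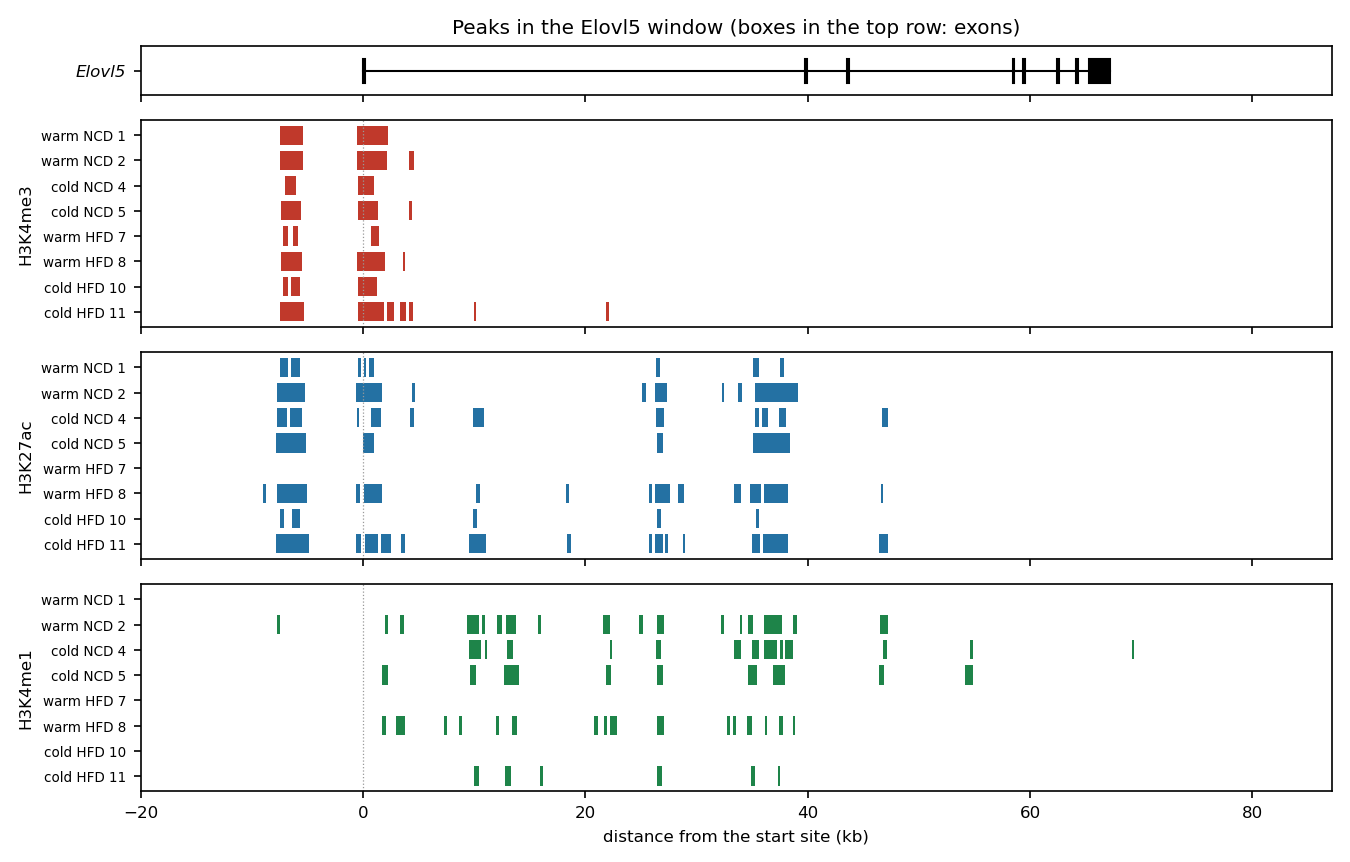
Peaks of H3K4me3, H3K27ac and H3K4me1 in the Elovl5 window, as distance from the start site in kb with 1 row a mouse and exons at the top. The region upstream of the start carries H3K4me3 in all 8 mice and H3K27ac in 7, and H3K4me1 is spread over intron 1 in mice 2, 4, 5, 8 and 11.

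The other members had few regions. The H3K4me3 peak at Elovl1 had a median width of 1580 bp, and H3K27ac lay within 1000 bp of a start site in mice 1, 2, 4, 5, 8 and 11. A single H3K27ac peak crossed the first start in mouse 11, mice 2, 4 and 5 had peaks on both sides of it, and mice 1 and 8 only after it. Other H3K4me3 regions in the Elovl1 window lay at Cdc20 and 4750 bp from the start of Gm12858. At Elovl4 (ENSMUSG00000032262.13, chr9:83778692-83806277, - strand) H3K4me3 was present in 7 mice at a median percentile of 51.0 by fold. H3K27ac was absent from its start site but lay 34.0 to 34.6 kb after it, beyond the end of the gene, in mice 2, 4, 5, 8, 10 and 11. A region 14.9 to 14.5 kb before the start had H3K27ac in mice 2, 8 and 11, and Ttk (a mitotic kinase) has the nearest start to it. Elovl2 (ENSMUSG00000021364.16, chr13:41182381-41220405, - strand) and Elovl7 (ENSMUSG00000021696.9, chr13:108214404-108285683, + strand) each had 1 H3K4me3 region, at the start site, in mice 1, 2, 4, 5, 8 and 11. It covered 0.775% ± 0.547 and 0.727% ± 0.454 of their windows (SD, n = 8). By the median width of the start site peak, the order was Elovl6 (3380 bp), Elovl3 (2850 bp), Elovl5 (2030 bp), Elovl1 (1580 bp), Elovl7 (1080 bp), Elovl4 (960 bp) and Elovl2 (888 bp). The ranges of the upper 3 overlapped (1301 to 4886, 473 to 5578 and 763 to 2768 bp), as did those of Elovl7, Elovl4 and Elovl2 (983 to 1208, 362 to 1143 and 337 to 1036 bp).

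The other genes of the pathway are given beside the share of all genes with a start site peak in at least 1 mouse, 65.4% for H3K4me3 and 50.0% for H3K27ac, and in all 8 mice, 43.6% and 3.77%. Of the 7 genes of the other steps of the cycle, 6 had H3K4me3 at a start site in at least 1 mouse, 5 of them in all 8, and 5 had H3K27ac. None had H3K27ac in all 8 mice. Hsd17b12, the ketoacyl reductase, had H3K27ac in 7 mice. The dehydratases Hacd1, Hacd2 and Hacd3 had it in 5, 5 and 6 mice, and the enoyl reductase Tecr, named because only it and Hsd17b12 had that many, in 7. Of 8 desaturases, which put double bonds into the chains that elongases make, 6 had H3K4me3, 3 of them in all 8 mice, and 4 had H3K27ac. All 8 mice had H3K4me3 at Scd1 and at Scd2, where H3K27ac was found in 7 and 6 of them, while Scd3 and Scd4 had no peak of any mark at a start site. H3K4me1 was at a start site of Hacd3 in mouse 5 and of Scd1 in mouse 2 only. No gene of the 2 lists had H3K27me3 at a start site, and none followed temperature or diet in all 4 against 4 mice.

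Genes with a pattern like that of Elovl3 and Elovl6 were sought over the start site percentiles in all 32 lists, with 0 where there was no peak. The 3 protein-coding genes nearest to Elovl3 were Bbs4, Synrg and Ankrd12, with mean absolute differences of 4.42, 6 and 6.03 percentile points. Each had H3K4me3 in all 8 mice, and H3K27ac in 4, 3 and 4. Those nearest to Elovl6 were Rap1a, Gtf2a1 and Fbxo15, at 5.42, 6.22 and 6.23 points, with H3K4me3 in all 8 mice and H3K27ac in 8, 7 and 8. Both elongases had no H3K4me1 or H3K27me3 at the start site in any list, so 16 of the 32 values compared were 0 for both. With the lists that lacked H3K27ac, 20 values were 0 for Elovl3 and 16 for Elovl6. The genes were chosen by these same values, so their likeness in the presence of peaks follows from the choice.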

How the data were processed

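Each of 32 ChIP libraries (4 marks in 8 mice) had a peak list, deposited by the authors, and the 8 inputs entered only through those lists. Per the labels and the methods of the study, the tissue was dissociated and cross-linked, and the tools were cutadapt for trimming, Bowtie2 for alignment to GRCm38 and MACS2 for peaks, called over the input. Their versions and the threshold for a peak were not given in any source used here. In the authors' lists, each peak has a fold enrichment (a ratio), a −log10 p and a −log10 q. These depend on the depth of a library and were used only within a list, to rank or filter peaks. No peak ended beyond any of the 20 chromosomes compared, and 8 of 8 promoter sequences of the family equalled the genome.

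Genes and start sites were those of GENCODE M21 basic. From the lists, presence of a peak within 1000 bp of a start site, the percent of the gene window under peaks, and the percentile by fold of the highest start site peak (0 where none; genes with such a peak in at least 4 mice) were computed in Python 3.11.15 with numpy 2.4.6, pandas 2.3.3 and scipy 1.17.1. Presence was tested by two-sided Fisher's exact test, and the other measures by exact permutation, two-sided, over the 70 ways to assign 4 and 4 mice. Tests were run over all protein-coding genes, or those with any peak, with Benjamini-Hochberg adjustment over all genes tested and a threshold of 0.05. The study states no test between conditions for these libraries. The interval code was tested on simulated intervals. The permutation code was tested on the H3K4me3 percentiles of these mice, shuffled within each gene, with shifts added to some genes. Exact tests of 2 against 2 mice cannot go below 0.333, so single conditions were not compared. Values of lists rest on the number of peaks called, and no interval for depth could be given.

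The 7 genes, the pathway and marker lists and the tests were chosen with earlier results of these data known. All 7 members were named, Elovl3 and Elovl6 with every region found in at least 3 mice. Other genes were named where their start was nearest to such a region, where their pattern was nearest to Elovl3 or Elovl6 (3 each), or from the pathway lists, at most 4 in listed order besides those with H3K27me3 or following a group. Tecr was added after its values were seen. Alternatives were other start site distances, summits, stricter q, equal list lengths, other flanks, other ranks and leaving out each mouse. One neighbouring region of the Elovl1 window is not reported here.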

Additional observations from a re-analysis of the deposited data

How the results depend on the processing

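Of 282 values recomputed under other settings, 20 counts moved by more than 1.5 times or from or to 0, and 7 differences turned. The remaining 255 were counts within 1.5 times of the main value, or differences with the same sign and side of an adjusted p of 0.05. Every difference had an adjusted p above 0.05, so an unadjusted p that crossed 0.05 was not counted as a change. No paired analysis was possible because the mice of different conditions share no numbers. The number of members with H3K4me3 at a start site in all mice (3) was 3 to 5 when 1 mouse was left out, the 5 being without mouse 7. The number with H3K27ac in all mice (1, Elovl6) was 0 with start sites within 500 bp, with a −log10 q of at least 5 and with lists of equal length. The number with H3K27ac in any mouse (4) was 2 with lists of equal length. The number with H3K4me1 (0) was 1, Elovl5, within 2000 bp. The number with H3K27me3 (1) was 0 at a −log10 q of at least 5, and 0 to 1 when 1 mouse was left out, the 0 being without mouse 5. No member followed temperature or diet at a start site under any of these settings. Member tests of covered share by diet below an unadjusted 0.05 (0) were 0 to 3, the 3 without mouse 11. Those of the interaction (0) were 0 to 1, the 1 without mouse 8. For these counts and those of the rank below, the share of all genes under 0.05 was not counted.

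For the rank of the start site peak, the tests below an unadjusted 0.05 by temperature (1, Elovl1) were 0 to 1 when 1 mouse was left out (0 without mouse 4, 5, 10 or 11) and 0 when ranked by width. Those by diet (1, Elovl3) were 0 to 3 when 1 mouse was left out (0 without mouse 4 or 5, 2 without mouse 2, 3 without mouse 11), and 0 with lists of equal length, an alternative chosen after seeing the data. The difference in H3K27ac cover at Elovl6 by temperature (2.05) was -0.488 with lists of equal length, -0.362 when divided by the bases under peaks in the list (per 1e6 bases), and between -1.79 and 5.67 when 1 mouse was left out (-1.79 without mouse 11 and -0.415 without mouse 7). That at Elovl3 (-1.21) was between -3.98 and 1.29 (1.29 without mouse 8 and 0.12 without mouse 10) when 1 mouse was left out. The Elovl6 H3K4me3 rank difference by diet (26.6) was -2.24 when ranked by width. No adjusted p of these fell below 0.05. The cause of these changes was not tested. The lists of mice 7 and 10 limit what can be said of H3K4me1 and H3K27ac on HFD, and that of mouse 1 what can be said of H3K4me1 in warm NCD mice.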
